A study of Mus musculus with 6 samples.

Results

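Genes of sterol and fatty acid synthesis and of cholesterol export were followed in RNA-seq of cocultured CD8T cells. The members were chosen by name, as 34 of the 54532 genes in the count table. Of these, 30 act in synthesis or its control, and 4 belong to the liver X receptor (LXR) arm, namely Nr1h3, Abca1, Abcg1 and Mylip. All 34 genes had counts in every library, and all 34 passed the filter on low counts, as 14883 genes did.

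Cells build cholesterol from acetyl-CoA through mevalonate, farnesyl diphosphate and squalene, and they build fatty acids from the same precursor. When sterols run low in the endoplasmic reticulum, the SREBP transcription factors are released from their anchor and switch on these enzymes and the uptake of lipoproteins. When sterols are plentiful, oxysterols activate LXR, which induces cholesterol export. T cells raise synthesis when they are activated and divide, whereas macrophages rely on export when they take up lipid, the step that fails in foam cells of plaques.

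CD8T cells of both groups were isolated from mouse spleen, stimulated by beads carrying anti-CD3/CD28, and kept for 24 hr in coculture. Their partners were thioglycolate-elicited peritoneal macrophages that had received IFN-γ (10 ng/mL, 12 hr). In the DB2313 group the macrophages had in addition been treated with DB2313, a small molecule that inhibits the transcription factor Spi1, at the 14 nM given in the study's methods. GEO's labels speak of primary T cells and DC cells, whereas the methods of the study describe macrophages. Neither source gives the strain or age of the donor mice or says whether the 3 libraries per group came from separate cultures, so p-values measure the spread between libraries, which may be technical.
The libraries held between 16611975 and 18596217 counts. All 20 T cell markers were detected in every library and were higher in the DB2313 group, at a summed 5230 to 5275 CPM (TMM-scaled counts relative to library size) against 3469 to 3495 CPM in the control group. All 20 macrophage markers were detected as well and were lower, at a summed 5307 to 5472 CPM against 14057 to 14444 CPM. Of 10 dendritic cell markers 8 were lower and 1 (Flt3) higher, and their sum ranged from 2637 to 2674 CPM against 3880 to 3936 CPM. Of 7 neutrophil markers 6 were lower and 1 (Retnlg) higher, at a summed 536.6 to 558.9 CPM against 1412 to 1435 CPM, and of 5 B cell markers 3 were higher and none lower, at 55.8 to 58.3 CPM against 39.1 to 44.5 CPM. Hepatocyte markers had no count in any library, and among the adipocyte markers Lep and Cidec had none and Adipoq had at most 4 counts. Markers of T cells, macrophages, dendritic cells, neutrophils and B cells were thus counted in each library. Fewer cells of a type, less RNA per cell and changed transcription of the marker genes themselves cannot be told apart. The macrophage list includes Spi1, C1qa, C1qb and C1qc, and the paper reports that DB2313 lowered C1q expression in GM-CSF-treated monocytes.

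Most of these genes differed little between the groups, and those that differed were mainly lower in the DB2313 group. At an adjusted p below 0.05, 17 of the 34 genes were lower and 2 were higher. Among all genes tested, 24.6% were lower, 20.8% higher and 45.4% either at the same threshold. The median log2 fold change of the 34 genes was -0.20, against 0.019 for all genes tested. In 30 of the 34 the absolute log2 fold change was under 0.5, as it was in 77.1% of all genes tested. With an absolute log2 fold change over 1 required as well, only Scd1 was called, as a lower gene, against 5.30% of all genes tested that were lower, 1.37% that were higher and 6.67% that were either by this rule.
The 30 synthesis genes were lower in 15 cases and higher in 1 (Elovl6), with a median log2 fold change of -0.19. The 4 genes of the LXR arm were lower in 2 cases and higher in 1 (Mylip), with a median of -0.44. In 19 of the 34 genes every DB2313 library lay below every control library, and in 2 genes above, against 27.5% and 25.6% of all genes tested (53.1% in either direction). For a single gene without such overlap the two-sided exact permutation test gave p = 0.1, which is the smallest p that 3 against 3 libraries allow.
These counts depended on how the libraries were scaled. When libraries were scaled to the T cell markers, 34 of 34 genes were lower, against 77.6% of all genes tested (1.09% were higher), and the median of all genes tested moved from 0.019 to -0.57 while that of the 34 genes moved to -0.80. With scaling to library size, 14 genes were lower and 2 higher, with a median of -0.11 against 0.11 for all genes tested.

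**Figure D1:**
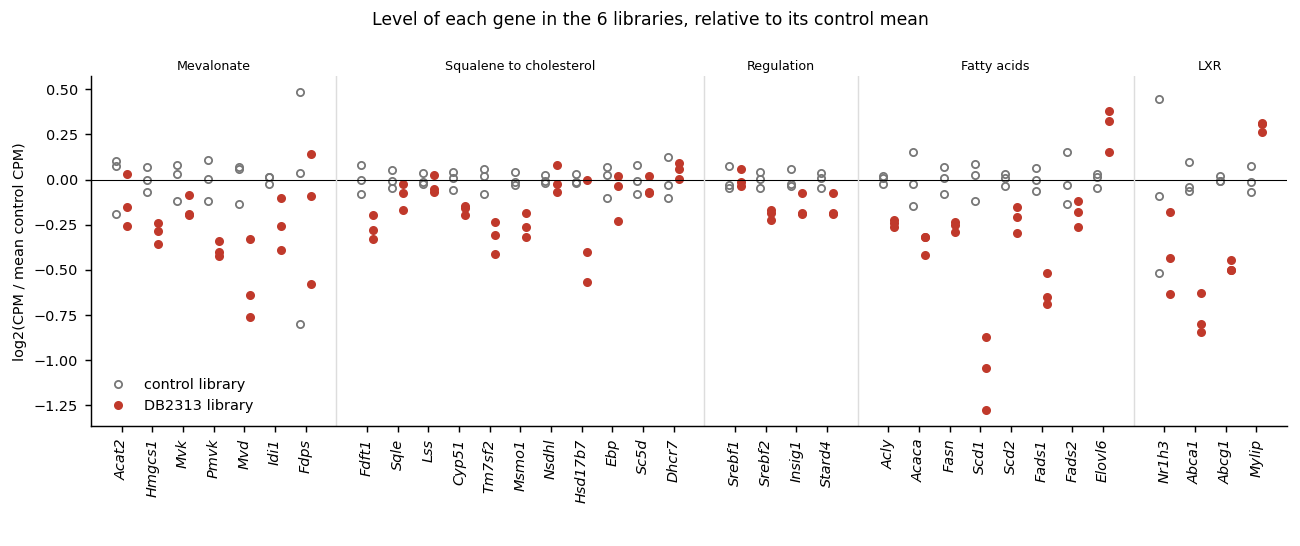
Level of each of the 34 genes in the 6 libraries, as log2 of CPM over the gene's mean control CPM (y axis), with genes on the x axis grouped by role; open grey points are the 3 control libraries and filled red points the 3 DB2313 libraries. Scd1, Abca1 and Fads1 lie furthest below their controls, and Elovl6 and Mylip lie above them.

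Promoter sequences from RefSeq (GRCm38.p6) were matched by symbol for 26 of the 34 genes, each as 300 bases from 250 before to 50 after a start site. The CCAAT box, to which the factor NF-Y binds and which accompanies SREBP sites in many sterol genes, was searched as CCAAT on both strands. It was found in 20 of the 26 genes (76.9%), against 41.1% of all 27025 genes with a promoter. Some genes have more than 1 promoter, and per promoter the shares were 65.6% of 32 and 37.4% of 32851. The genes compared with were not limited to those tested here. Among the enzymes of sterol synthesis the CCAAT box was found in 14 of 15, among fatty acid genes in 2 of 5, and in the LXR arm in 1 of 3. It was found in 10 of the 12 matched genes that were lower and in 9 of the 12 that were not called.
The core of the sterol regulatory element was searched as TCACNCCAC on both strands. It was found in 1.44% of all genes with a promoter and in 1 of the 26 matched members (3.85%), Hmgcs1. A motif of PU.1 (the protein encoded by Spi1) was searched as GAGGAAGT on both strands. It was found in 3.69% of all genes with a promoter and in 2 of the 26 matched members (7.69%), Acat2 and Elovl6. An LXR element was searched as AGGTCA repeated in the same direction after 4 bases of any kind. It was in 0 of the matched members and in 0.0148% of all genes with a promoter. A match describes letters and not a bound site.
The 250 bases before the start site are shown for 5 genes because they carry these letters in genes described in the following paragraphs. Capitals mark the sterol regulatory core, CCAAT boxes (CCAAT or ATTGG) and the PU.1 motif. Hmgcs1 (SRE core and CCAAT boxes) is at chr13:119690101-119690350 on the plus strand, Mvd at chr8:122443423-122443672 on the minus strand, Fasn at chr11:120824548-120824797 on the minus strand, Elovl6 (PU.1 motif on the minus strand) at chr3:129532136-129532385 on the plus strand and Mylip at chr13:45389492-45389741 on the plus strand.
Hmgcs1: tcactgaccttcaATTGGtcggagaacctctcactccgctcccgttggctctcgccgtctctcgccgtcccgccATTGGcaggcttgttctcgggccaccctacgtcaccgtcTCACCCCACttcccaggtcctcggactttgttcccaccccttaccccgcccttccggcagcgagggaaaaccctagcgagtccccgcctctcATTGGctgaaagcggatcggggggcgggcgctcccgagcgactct
Mvd: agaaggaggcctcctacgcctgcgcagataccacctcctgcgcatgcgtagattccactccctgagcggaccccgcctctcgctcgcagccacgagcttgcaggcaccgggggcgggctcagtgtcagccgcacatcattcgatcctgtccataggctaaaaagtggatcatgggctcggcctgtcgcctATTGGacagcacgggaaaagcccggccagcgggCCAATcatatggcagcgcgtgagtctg
Fasn: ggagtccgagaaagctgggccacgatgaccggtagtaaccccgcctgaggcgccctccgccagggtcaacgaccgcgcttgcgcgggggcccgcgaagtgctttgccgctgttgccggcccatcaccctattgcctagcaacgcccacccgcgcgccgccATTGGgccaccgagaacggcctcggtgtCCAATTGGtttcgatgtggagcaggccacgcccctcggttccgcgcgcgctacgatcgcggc
Elovl6: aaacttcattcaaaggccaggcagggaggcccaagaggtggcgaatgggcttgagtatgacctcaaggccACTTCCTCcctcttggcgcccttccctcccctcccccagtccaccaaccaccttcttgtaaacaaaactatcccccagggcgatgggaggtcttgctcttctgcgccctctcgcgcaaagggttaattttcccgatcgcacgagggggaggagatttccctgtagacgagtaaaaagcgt
Mylip: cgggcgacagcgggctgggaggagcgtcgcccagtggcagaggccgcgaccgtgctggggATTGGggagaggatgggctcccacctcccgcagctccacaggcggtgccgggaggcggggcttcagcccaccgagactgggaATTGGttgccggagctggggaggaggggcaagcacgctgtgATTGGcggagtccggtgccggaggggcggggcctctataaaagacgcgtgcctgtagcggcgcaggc
In Hmgcs1 the sterol regulatory core lies 137 bases before the start site, between CCAAT boxes. In Fasn a pair of CCAAT boxes overlaps as CCAATTGG.

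Levels of different genes were compared per length, as CPM per kilobase of the gene model. In the control group the highest was Acly, which makes the acetyl-CoA for both pathways, at 52.0 ± 0.846 (SD, n = 3). It was followed by the cholesterol exporter Abcg1 at 42.2 ± 0.50 and by Srebf2, which encodes the SREBP of the sterol genes, at 39.8 ± 1.22 (SD, n = 3 each). Mvd (26.3 ± 2.05), Scd2 (26.1 ± 0.597) and Ebp (25.5 ± 1.57) came next and lay within each other's SD (n = 3 each). The lowest was Fdps, at 0.481 ± 0.198 (SD, n = 3), with 20 to 51 counts in a library. Exons of Fdps share 1124 bases, or 26.7%, with Gm43738 on the same strand, which had 0 to 1 counts in a library. Whether this overlap lowered the Fdps counts was not tested.
Within pairs of related genes the levels also stood apart. Scd2 exceeded its paralog Scd1, at 2.41 ± 0.173, and Srebf2 exceeded Srebf1, at 17.8 ± 0.799 (SD, n = 3 each). The second LXR exporter, Abca1, was at 3.61 ± 0.222, below Abcg1, and the gene of LXRα, Nr1h3, at 2.14 ± 0.717 (SD, n = 3 each).

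**Figure D2:**
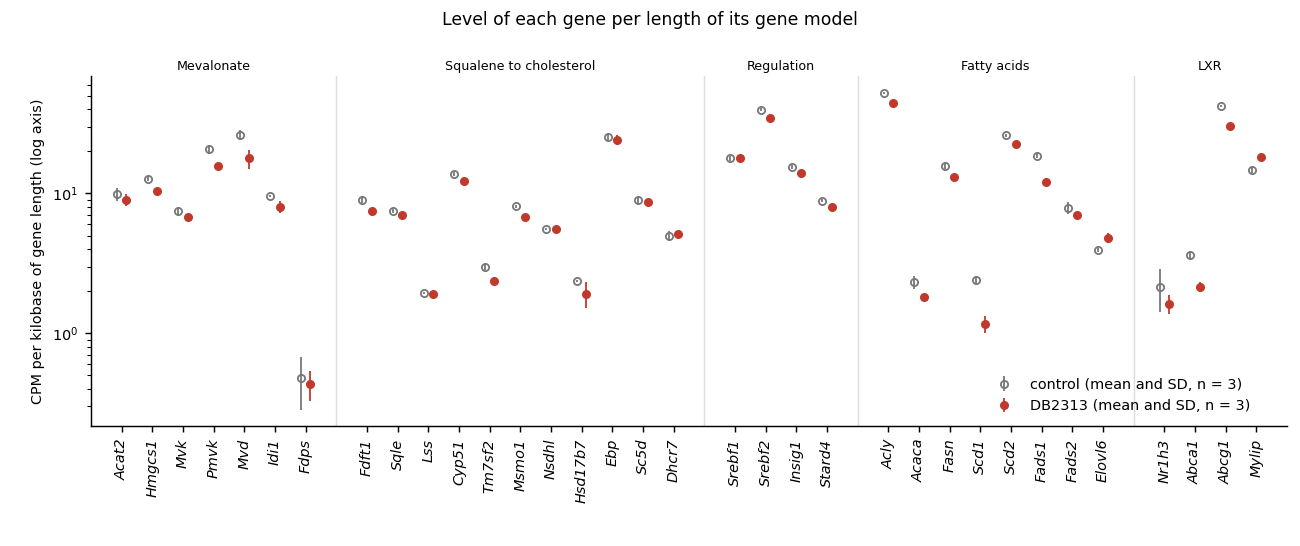
Level of each gene per length of its gene model, as CPM per kilobase on a log axis, with points for the mean and bars for the SD of 3 libraries (open grey, control; filled red, DB2313). Levels span from 0.481 for Fdps to 52.0 for Acly in the control group.

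The 7 genes that lead from acetyl-CoA to farnesyl diphosphate were lower in 4 cases and higher in none. Among all genes tested, 24.6% were lower and 20.8% higher. The 7 genes had a median log2 fold change of -0.25. Their summed level was 222.1, 220.1 and 228.8 CPM in the control libraries and 173.1, 188.8 and 175.4 CPM in the DB2313 libraries, a difference of -19.9% of the control mean.
Mvd (ENSMUSG00000006517, chromosome 8 from 122433601 to 122443422 of GRCm38) encodes the decarboxylase that makes isopentenyl diphosphate. It was at 50.9, 44.6 and 51.4 CPM in the control libraries and at 31.5, 38.9 and 28.9 CPM in the DB2313 libraries. All DB2313 libraries lay below all control libraries, although DB2313 replicate 2 was closest to them. Mvd fell from 49.0 ± 3.81 to 33.1 ± 5.22 CPM (SD, n = 3 each; log2 fold change -0.57, standard error 0.086, adjusted p = 7.64e-06, edgeR), or by 32.6%.
Pmvk, the kinase of the step before it, was at 32.6, 38.2 and 35.5 CPM without and 28.0, 26.8 and 26.4 CPM with DB2313. It fell as well (log2 fold change -0.39, standard error 0.074, adjusted p = 0.000157, edgeR), and its groups did not overlap. Hmgcs1, the HMG-CoA synthase at the head of the pathway and the gene with the sterol regulatory core printed above, was at 61.5, 56.0 and 58.6 CPM in the control group and 48.2, 49.6 and 45.8 CPM in the DB2313 group. Its fall was of 18.5% (log2 fold change -0.30, standard error 0.059, adjusted p = 0.000236, edgeR), with no overlap.
Idi1, the isomerase of isopentenyl diphosphate, had the smallest change among the 4 that were called, at -0.25 (standard error 0.077, adjusted p = 0.0113, edgeR). This call was not made without DB2313 replicate 1 (adjusted p = 0.0783, edgeR) or with scaling to library size (0.104) or the upper quartile (0.0526). The kinase Mvk was at -0.16 (standard error 0.089, adjusted p = 0.166, edgeR), and the cytosolic thiolase Acat2 at -0.12 (standard error 0.093, adjusted p = 0.316, edgeR); in both the groups overlapped. Fdps, the farnesyl diphosphate synthase, was at -0.15 (standard error 0.32, adjusted p = 0.726, edgeR), with an interval of the difference from -0.81 to 0.51, so at 20 to 51 counts a change of the size seen in Mvd was not detectable. Its sign turned without control replicate 1 (0.17) or DB2313 replicate 1 (0.024).

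Of the 11 enzymes from squalene synthesis to cholesterol, 4 were lower and none higher, against 24.6% and 20.8% of all genes tested. The 11 enzymes had a median log2 fold change of -0.088. The summed level was 395.9, 380.4 and 385.5 CPM in the control libraries and 355.0, 362.4 and 345.6 CPM in the DB2313 libraries, a difference of -8.50%.
Tm7sf2, a sterol C14 reductase, was at 16.8, 15.7 and 17.2 CPM in the control group and at 13.4, 14.1 and 12.4 CPM in the DB2313 group. The groups did not overlap (log2 fold change -0.32, standard error 0.10, adjusted p = 0.0113, edgeR), but the call was lost with library size scaling (adjusted p = 0.0629, edgeR). Its exons share 532 bases with Vps51 on the same strand, which had 106 to 140 counts in a library.
Hsd17b7, a sterol 3-keto reductase, had a log2 fold change of nearly the same size, -0.31 (standard error 0.13, adjusted p = 0.0591, edgeR), without passing the threshold. It was at 12.4, 12 and 11.9 CPM in the control group and at 9.15, 12.1 and 8.15 CPM in the DB2313 group, where replicate 2 lay within the control range. Without that library Hsd17b7 was called (log2 fold change -0.48, adjusted p = 0.00409, edgeR).
Fdft1 (ENSMUSG00000021273, chromosome 14 from 63145150 to 63179578) encodes squalene synthase, the enzyme that commits farnesyl diphosphate to sterols. It was at 40.3, 38.1 and 36 CPM and fell to 33.3, 30.4 and 31.5 CPM (log2 fold change -0.27, standard error 0.070, adjusted p = 0.00295, edgeR). Its exons share 774 bases, or 18.3%, with those of Ctsb on the opposite strand, which had 18730 to 30822 counts in a library. Whether the counting used the strand is not given in the sources used here. The part of Ctsb in the Fdft1 counts and in their change was not tested.
The sterol methyl oxidase Msmo1 fell (log2 fold change -0.26, standard error 0.061, adjusted p = 0.00144, edgeR), as did the lanosterol demethylase Cyp51 (log2 fold change -0.17, standard error 0.055, adjusted p = 0.0150, edgeR). The Cyp51 call was not made with library size (adjusted p = 0.276, edgeR) or upper quartile scaling (0.124), without control replicate 3 (0.0710) or without DB2313 replicate 3 (0.0507). Ebp, a sterol isomerase and the enzyme of this group with the highest level per length, was at 62.0, 55.0 and 60.0 CPM and at 57.6, 59.8 and 50.4 CPM, with overlapping groups and a log2 fold change of -0.078 (standard error 0.065, adjusted p = 0.350, edgeR).
The other 5 enzymes were not called. Sqle, the squalene epoxidase and a rate-limiting step, was at -0.088 with an interval from -0.22 to 0.047. Lss, the lanosterol synthase, was at -0.031 (-0.20 to 0.14), Nsdhl at -0.0039 (-0.20 to 0.19), Sc5d at -0.043 (-0.18 to 0.091) and Dhcr7, which makes cholesterol from 7-dehydrocholesterol, at 0.053 (-0.10 to 0.21). Exons of Cyp51 also overlap Akap9 on the opposite strand, by 166 bases. With library size scaling Sqle, Lss, Nsdhl, Sc5d and Ebp had values above 0.

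Among the 4 genes of control and sterol transport only Srebf2 was called, as a lower gene, against 24.6% of all genes tested that were lower. Srebf2 (ENSMUSG00000022463, chromosome 15 from 82147181 to 82205379) was at 295, 277 and 286 CPM in the control libraries and 252, 245 and 255 CPM in the DB2313 libraries, with no overlap. It fell by 12.4% (log2 fold change -0.19, standard error 0.035, adjusted p = 8.75e-05, edgeR).
Srebf1, whose product mainly drives fatty acid genes and which is itself induced by LXR, was at 98.2, 105 and 97.1 CPM and at 99.3, 104 and 97.7 CPM. The groups overlapped fully, and the log2 fold change was 0.0033, with an interval from -0.089 to 0.096 (adjusted p = 0.961, edgeR). The count table does not separate its isoforms, and its exons share 109 bases with Rai1 on the opposite strand.
Insig1, which retains SREBP in the endoplasmic reticulum and is also an SREBP target, was at 46.7, 47.1 and 49.9 CPM and at 42.0, 42.2 and 45.6 CPM. Stard4, a carrier of cholesterol between membranes, was at 49.8, 48.1 and 50.9 CPM and at 43.5, 43.7 and 47.2 CPM. In both genes the DB2313 libraries lay below the control libraries without overlap, but the adjusted p was 0.0590 for Insig1 (log2 fold change -0.15) and 0.0528 for Stard4 (-0.15; edgeR). Without DB2313 replicate 3, the highest of its group in both, they were called (adjusted p = 0.0281 and 0.0246, edgeR).

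Of the 8 fatty acid genes 6 were lower and 1 higher, against 24.6% and 20.8% of all genes tested. The 8 genes had a median log2 fold change of -0.25. Their summed level was 760.4, 740.2 and 726.6 CPM in the control libraries and 611.0, 619.4 and 626.9 CPM in the DB2313 libraries, a difference of -16.6%.
The largest changes in this group were in Scd1 and Fads1. Scd1 (ENSMUSG00000037071, chromosome 19 from 44394451 to 44407709), which introduces the double bond of oleate, was at 10.8, 12.4 and 11.9 CPM in the control libraries and at 4.82, 6.39 and 5.65 CPM in the DB2313 libraries. The groups lay far apart, and Scd1 fell by 51.9% (log2 fold change -1.05, standard error 0.14, adjusted p = 7.71e-07, edgeR). Its paralog Scd2, the more abundant form here, fell by 14% (log2 fold change -0.22, standard error 0.042, adjusted p = 0.000144, edgeR). Reads shared between these similar genes could have been divided either way.
Fads1 (ENSMUSG00000010663, chromosome 19 from 10182888 to 10196870), the delta-5 desaturase of polyunsaturated fatty acids, was at 67.4, 64.2 and 61.6 CPM without and 45.1, 40.0 and 41.0 CPM with DB2313. It fell by 34.7% (log2 fold change -0.62, standard error 0.062, adjusted p = 1.39e-08, edgeR) with no overlap. Its neighbour Fads2, the delta-6 desaturase, was at -0.18 (standard error 0.12, adjusted p = 0.206, edgeR), with overlapping groups.
The enzymes of the main chain fell as well. Acaca, the carboxylase that makes malonyl-CoA, was at 43.9, 38.8 and 35.6 CPM and at 31.6, 29.5 and 31.6 CPM (log2 fold change -0.35, standard error 0.076, adjusted p = 0.000533, edgeR). Acly was at 278, 269.7 and 276 CPM and at 229, 236 and 233 CPM, and its difference of 15.4% was large beside the spread of the libraries (log2 fold change -0.24, standard error 0.034, adjusted p = 2.41e-06, edgeR). Fasn, the fatty acid synthase, fell by 16.4% (log2 fold change -0.26, standard error 0.040, adjusted p = 1.15e-05, edgeR).
Elovl6, which elongates palmitate to stearate, moved the other way. It was at 24.6, 25.6 and 26.0 CPM in the control libraries and at 33.0, 28.2 and 31.8 CPM in the DB2313 libraries, and no DB2313 library fell within the control range. It rose by 22.2% (log2 fold change 0.29, standard error 0.077, adjusted p = 0.00352, edgeR), except with scaling to the T cell markers, under which it was lower (-0.30).

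In the LXR arm the cholesterol exporters fell and Mylip rose. Abca1 (ENSMUSG00000015243, chromosome 4 from 53030787 to 53159895), which loads cholesterol onto apolipoprotein A-I, was at 40.0, 36.3 and 35.8 CPM in the control libraries and at 24.2, 21.5 and 20.8 CPM in the DB2313 libraries. It fell by 40.7% (log2 fold change -0.75, standard error 0.078, adjusted p = 2.59e-08, edgeR), with no overlap between the groups. Abcg1 (ENSMUSG00000024030, chromosome 17 from 31057698 to 31115777), which exports cholesterol to HDL, was at 171, 174 and 170.4 CPM and at 121, 126 and 121 CPM. Its libraries lay close together within each group, and it fell by 28.5% (log2 fold change -0.48, standard error 0.037, adjusted p = 1.27e-10, edgeR).
Mylip (ENSMUSG00000038175, chromosome 13 from 45389742 to 45412022), a ubiquitin ligase induced by LXR, was at 50.2, 47.3 and 45.5 CPM in the control libraries and at 57.1, 59.2 and 59.1 CPM in the DB2313 libraries. It rose by 22.6% (log2 fold change 0.29, standard error 0.058, adjusted p = 0.000203, edgeR), but was lower with scaling to the T cell markers (-0.30).
Nr1h3 had 68, 87 and 120 counts in the control group and 88, 68 and 64 counts in the DB2313 group. This corresponded to 3.77, 5.06 and 7.33 CPM and 4.76, 3.99 and 3.48 CPM, so the groups overlapped. Its fold change on the log2 scale was -0.39 (standard error 0.21, adjusted p = 0.140, edgeR), with an interval from -0.84 to 0.048. Without control replicate 1, the lowest of its group, it was -0.60 and passed the threshold (adjusted p = 0.0271, edgeR).
The macrophage markers, all 20 of which were lower, had a median log2 fold change of -1.18 and ranged from -2.16 to -0.52. Abcg1 lay outside that range and Abca1 at -0.75 within it. Nr1h3 and the exporters are expressed in macrophages, and the part of the macrophage RNA in their change was not tested.

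**Figure D3:**
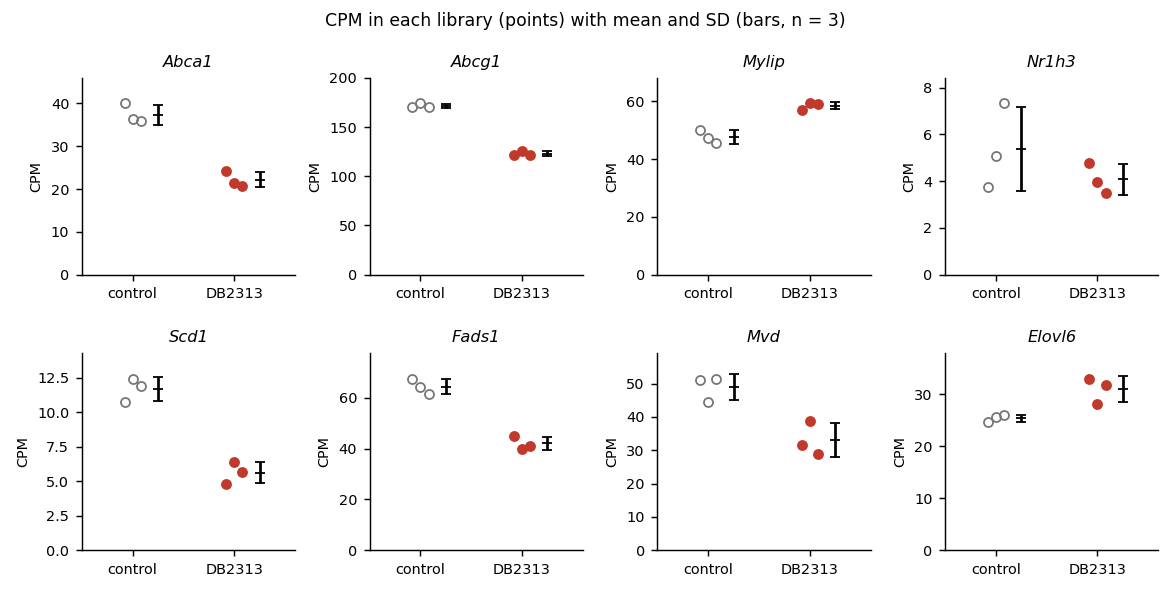
CPM of 8 genes in each library (y axes start at 0), with points for libraries and the bar for mean and SD of 3 (open grey, control; filled red, DB2313). The groups do not overlap in Abca1, Abcg1, Mylip, Scd1, Fads1, Mvd and Elovl6, and overlap in Nr1h3.

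Ratios of 2 genes within a library do not depend on how libraries are scaled, and 5 were taken after the values had been seen. The log2 ratio of Mylip to Abca1 was 0.33, 0.38 and 0.35 in the control libraries and 1.24, 1.46 and 1.5 in the DB2313 libraries, a difference of 1.05. The ratio of Elovl6 to Fasn differed by 0.54, that of Srebf1 to Srebf2 by 0.20, that of Fads1 to Fads2 by -0.43 and that of Scd1 to Scd2 by -0.84. None of the 5 ratios overlapped between the groups, and each gave p = 0.1 in the two-sided exact permutation test (0.1 after Benjamini-Hochberg adjustment over the 5), the smallest that 3 against 3 allow. Because the pairs were chosen with the values known, the lack of overlap and these p-values cannot count as a test. Among single genes tested, 53.1% did not overlap.

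A further 47 genes of these pathways, in 5 lists, were set beside the members, and 43 of them passed the filter. Of these 19 were lower and 8 higher, with a median log2 fold change of -0.062. Over all genes tested the shares were 24.6% lower and 20.8% higher, and the median was 0.019.
Of 6 further genes of sterol synthesis, 2 were lower and 2 higher. Ggps1, which draws isoprenoids away from sterols, rose most (log2 fold change 0.30, standard error 0.059, adjusted p = 0.000179, edgeR). It was lower with scaling to the T cell markers (-0.29).
Of 6 genes of SREBP processing and lipoprotein uptake, 1 was lower and 1 higher. Scap, the sterol sensor that escorts SREBP, rose by 9.51% (log2 fold change 0.13, standard error 0.048, adjusted p = 0.0289, edgeR), but this call was lost under DESeq2 (adjusted p = 0.0622), without a filter (0.0542), and without control replicate 2 (0.0998) or 3 (0.0577) or DB2313 replicate 2 (0.0561) or 3 (0.0956; edgeR), and with scaling to the T cell markers its value was -0.46. Insig2 had the highest value of the list, 0.15 (standard error 0.083, adjusted p = 0.152, edgeR), without passing.
Of 14 genes of fatty acid supply and elongation, 6 were lower and 2 higher. The largest fall was in Me1, the cytosolic malic enzyme, from 3.44 ± 0.603 to 1.72 ± 0.340 CPM (SD, n = 3 each; log2 fold change -1.0, standard error 0.25, adjusted p = 0.00229, edgeR). The largest rise was in Acss2, which makes acetyl-CoA from acetate (log2 fold change 0.59, standard error 0.068, adjusted p = 1.22e-07, edgeR); with scaling to the T cell markers it was at -0.0025.
Of 10 LXR partners and further targets, 5 were lower and 2 higher. Apoe, the apolipoprotein that macrophages secrete, fell from 397 ± 18.7 to 225 ± 1.02 CPM (log2 fold change -0.82, standard error 0.037, adjusted p = 6.59e-15, edgeR), whereas Pltp, the phospholipid transfer protein, rose from 19.9 ± 0.432 to 35.9 ± 3.21 CPM (SD, n = 3 each; log2 fold change 0.85, standard error 0.080, adjusted p = 4.90e-09, edgeR). Rxra, the partner receptor of LXR, was named after its value was seen and was at -0.54 (standard error 0.063, adjusted p = 1.69e-07, edgeR).
Of 7 genes of sterol storage, lysosomal release and oxysterols, 5 were lower and 1 higher, with a median of -0.66, the lowest of the 5 lists. Cyp27a1, which makes 27-hydroxycholesterol, an LXR ligand, fell most and was the one further gene past an absolute log2 fold change of 1 (log2 fold change -1.11, standard error 0.11, adjusted p = 5.74e-09, edgeR). The other lower genes, named after their values were seen, were Soat1, which esterifies cholesterol (-0.86), Nceh1, a cholesteryl ester hydrolase (-0.85), Lipa, the lysosomal acid lipase (-0.66), and Npc1, which moves cholesterol out of lysosomes (-0.47). Ch25h, which makes 25-hydroxycholesterol, was higher (log2 fold change 0.86, standard error 0.33, adjusted p = 0.0372, edgeR) at 1.11 ± 0.323 and 2.05 ± 0.509 CPM (SD, n = 3 each), and lost its call under DESeq2 (adjusted p = 0.0593) and when 1 library was left out, namely control replicate 2 (0.0920) or 3 (0.140) or DB2313 replicate 2 (0.106) or 3 (0.121; edgeR).

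**Figure D4:**
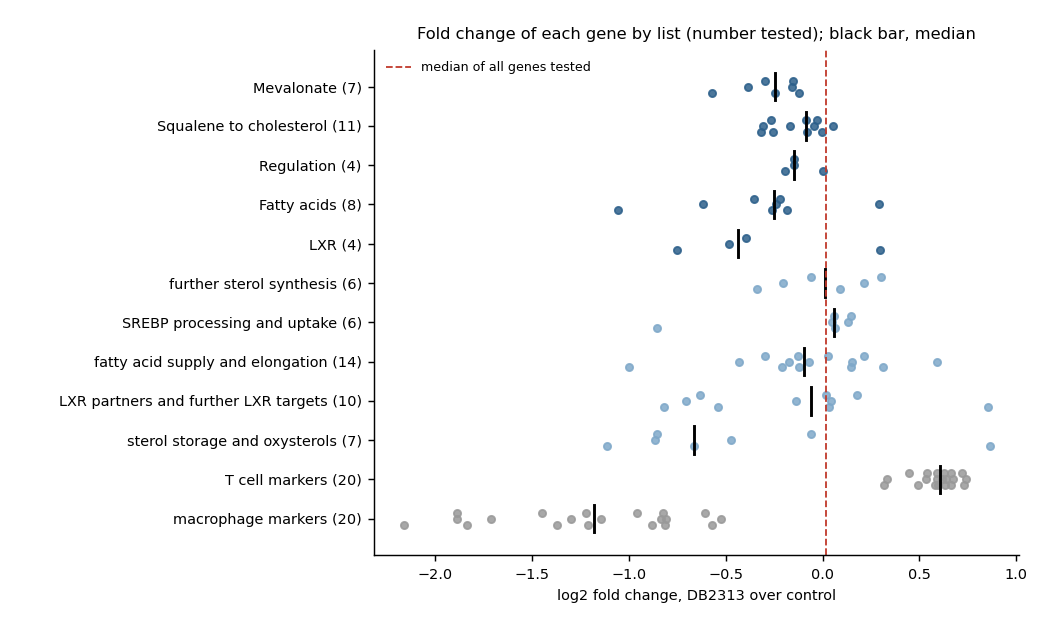
Log2 fold change of each tested gene (x axis) by list (y axis, with the number tested); dark blue, the 34 genes by role; light blue, further pathway genes; grey, cell type markers; black bars, medians; red dashed line, the median of all genes tested. Of the 30 synthesis genes 27 lie below 0, at a median of -0.19 and with Scd1 lowest at -1.05. Sterol storage genes lie further left at a median of -0.66, and T cell and macrophage markers to either side at 0.61 and -1.18.

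The 30 synthesis genes stood at a median of -0.19, between the macrophage markers at -1.18 and the T cell markers at 0.61. Among proliferation markers, 4 of 8 were higher, 0 lower and 4 not called, against 20.8% higher and 24.6% lower among all genes tested. Their median was 0.14 on the log2 scale. Their summed level was 1207 to 1252 CPM in the DB2313 libraries against 1071 to 1094 CPM in the control libraries. How far the mixture of cells, neutrophils and B cells included, or their division set the level of the synthesis genes was not tested.

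**Figure D5:**
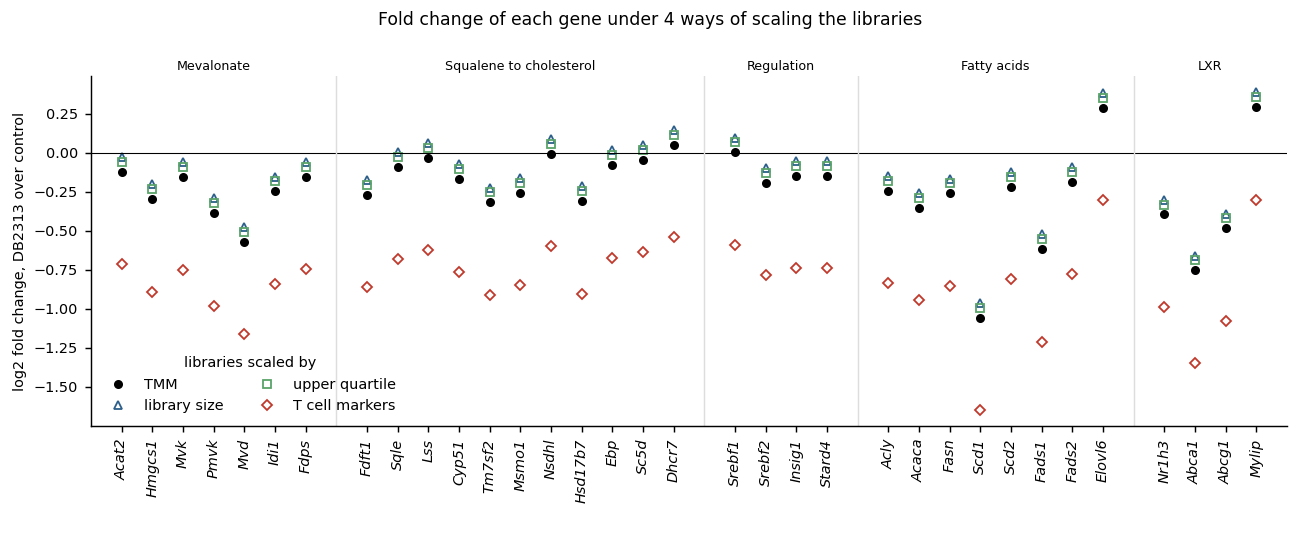
Log2 fold change of each gene (y axis) with libraries scaled by TMM (black), library size (blue triangles), the upper quartile (green squares) or the T cell markers (red diamonds). Library size and upper quartile lie slightly above TMM, whereas with the T cell markers all 34 genes lie below 0, Elovl6 and Mylip at -0.30 included.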

How the data were processed

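RNA-seq of 3 control and 3 DB2313 libraries was analysed. The authors deposited raw counts per gene without normalization. The paper names LifeScope for alignment and counting, whereas the submitters' processing notes name CASAVA 1.8, HISAT2 2.0.5 and featureCounts 1.5.0-p3; the sources used here do not settle which made the counts, and strandedness is not given in them. No genome build is named, but 53585 of 54495 genes (98.3%) have the coordinates of GENCODE vM21 on GRCm38.
Genes were filtered (filterByExpr), scaled by TMM and tested with edgeR 4.0.16 (quasi-likelihood) in R 4.3.3, with Benjamini-Hochberg adjustment over all 14883 tested genes and calls at 0.05. Standard errors came from the fold change and its F statistic, and 95% intervals used the t distribution with the fit's degrees of freedom. The scripts were tested on simulated counts. Totals ran from 16611975 to 18596217 counts, and precision is lowest for Fdps and Nr1h3. Same-numbered libraries showed no pairing: correlations of their deviations from group means were -0.0033, -0.014 and -0.023. Those of differently numbered libraries ran from -0.029 to 0.041. Such correlations include counting noise, so they cannot exclude shared cultures or animals. Replicates differed by more than sampling noise (chi-square per gene from 2.48 to 3.81 within groups, 46.9 to 50.5 between).
The members and lists were chosen with earlier results of these data known. Values per library were given for the LXR and control genes and, in each other group, the 3 largest changes and the highest level per length, plus Elovl6, chosen after its values were seen. Further pathway genes were named by the largest rise and fall per list, except where stated; results for some genes of these lists are not reported here. Alternatives were DESeq2 1.42.0, other scalings, filters, a replicate block, leaving out each library and a fold threshold.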

Additional observations from a re-analysis of the deposited data

How the results depend on the processing

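Over the 34 genes, DESeq2, no filter and the replicate block kept direction and call in 34 of 34. With the replicate block 17 of the 34 genes were lower and 2 higher, and over all genes 3525 lower and 2912 higher; the numbers share no known source, and the block changed the call of 1 other named gene, Ch25h (adjusted p = 0.0586, edgeR). Library size scaling called 4931 genes higher and 2852 lower over all genes, against 3096 and 3667 with TMM, and 15 further pathway genes higher against 8. It turned the sign of Sqle (0.0068), Lss (0.063), Nsdhl (0.090), Sc5d (0.052) and Ebp (0.016), and upper quartile scaling that of Lss (0.033), Nsdhl (0.060) and Sc5d (0.022). Scaling to the T cell markers called 162 genes higher and 11551 lower over all genes, 0 members higher and 34 lower (30 of synthesis and 4 of the LXR arm, 0 higher in each), and 1 further pathway gene higher and 38 lower. It turned Dhcr7 (-0.54), Srebf1 (-0.59), Elovl6 (-0.30), Mylip (-0.30), Ggps1 (-0.29), Scap (-0.46), Insig2 (-0.44) and Acss2 (-0.0025). With an absolute log2 fold change over 1 in addition, 204 genes were higher and 789 lower over all genes, 0 members higher and 1 lower (1 of synthesis, 0 of the LXR arm), and 0 further pathway genes higher and 1 lower. When 1 library was left out, 16 to 18 members were lower and 2 higher, the LXR arm had 2 to 3 lower, and 5 to 7 further pathway genes were higher. The fold change then ranged from -0.43 to 0.17 for Fdps, -0.046 to 0.029 for Nsdhl, -0.078 to 0.0014 for Sc5d and -0.024 to 0.041 for Srebf1; none of these was called. The cause of these changes was not tested. Groups of 3 libraries limit single-gene permutation tests to p = 0.1.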
